A study of Monodelphis domestica with 2 samples.

Results

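Sst interneurons, the subclass of cortical inhibitory neurons named for the peptide somatostatin, were described here in adult opossum (Monodelphis domestica) primary visual cortex, or V1. The members were the nuclei that the deposited annotation placed in the subclass Sst, 1020 of the 4347 GABAergic nuclei with a subclass and of the 32764 labelled nuclei in all. The annotation split them into 4 types, with 312 nuclei in Sst_1, 308 in Sst_2, 272 in Sst_3 and 128 in Sst_4. The study profiled V1 nuclei of 2 adult male opossums by droplet-based single-nucleus RNA sequencing, and each of the 2 samples was an animal. Animal 1 was 1.5 years old and animal 2 was 2 years old. Both belonged to 1 group with no treatment, and tissue of both hemispheres was pooled within each animal. The frozen tissue was processed in parallel by different experimenters, nuclei were sorted for the DNA dye Draq5, and each suspension was loaded into 2 wells, which gave 4 libraries, named 1A and 1B (animal 1) or 2A and 2B (animal 2) here.

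Sst interneurons arise in the medial ganglionic eminence (MGE) together with Pvalb interneurons, whereas Vip and Lamp5 interneurons are mostly derived from the caudal ganglionic eminence (CGE). In the cortex of placental mammals they include Martinotti cells, whose axons climb to layer 1 and inhibit the distal dendrites of pyramidal neurons, and they are themselves inhibited by Vip interneurons. Somatostatin is released as a peptide beside GABA and acts on inhibitory receptors coupled to G proteins.

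Sst nuclei numbered 539 in animal 1 and 481 in animal 2. Their median depth was 6269 UMIs in animal 1 and 4713 in animal 2, against 6709 and 6259.5 in the other labelled GABAergic nuclei. A UMI, or unique molecular identifier, marks 1 captured RNA molecule. The summed depth was 1813116 and 1734944 UMIs in libraries 1A and 1B and 1169755 and 1458563 in 2A and 2B. No barcode was shared between the Sst nuclei of any 2 libraries. Sst_2 stood apart from the other types. Its median depth was 1621 UMIs in animal 1 and 2586 in animal 2, where the medians of the other types lay between 6692 and 7736. The doublet caller Scrublet had marked 6.49% of its nuclei (20 of 308), against 1.40% of the other Sst nuclei (10 of 712). Without Sst_2 the median depth of Sst nuclei was 7163 and 6787 UMIs, above that of the other GABAergic nuclei in both animals.

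Levels are given as CPM, the UMIs of a gene per 1000000 UMIs, after summing over the nuclei of a group in 1 animal or library. In summed counts, fewer nuclei that express a gene and fewer molecules per nucleus cannot be told apart. Of values joined by a slash, the first is of animal 1 and the second of animal 2. Errors are SDs over the 2 animals. The libraries of an animal shared a suspension, so their spread is technical. Because the labels came from clusters of the same genes, differences between Sst and other nuclei, and between Sst types, are descriptions with no test.

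The markers of the label were present. SST, the gene of the peptide, was at 336 and 365 CPM in libraries 1A and 1B and 303 and 282 in 2A and 2B. The other labelled GABAergic nuclei had 16.2/17.3 CPM in animals 1 and 2, and no library of theirs reached an Sst library. The log2 ratio was 4.18 ± 0.25 (n = 2). Among the single subclasses, Pvalb came next with 20.3/21.5 CPM. Oligodendrocytes, which should lack the peptide, had 13.9/10.5 CPM and IT_A neurons 3.78/2.49, so low levels also occurred outside interneurons. LHX6, a transcription factor of MGE-derived interneurons, was at 324/316 CPM in Sst nuclei of the 2 animals and at 185/179.8 in Pvalb nuclei, where it is also a marker. In Vip, Lamp5 and Frem1 nuclei it stayed at or under 7.90 CPM. In summed counts each of these subclasses carried the CGE marker ADARB2, and they are called the CGE-type subclasses here. CRHBP, which encodes a protein that binds corticotropin-releasing hormone, was at 37.5/52.1 CPM in Sst and 26.5/43.2 in Pvalb nuclei. Sst was above Pvalb in each animal, but by less than 2-fold, and both exceeded the Vip, Lamp5 and Frem1 subclasses, which had at most 4.74 CPM.

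**Figure D1:**
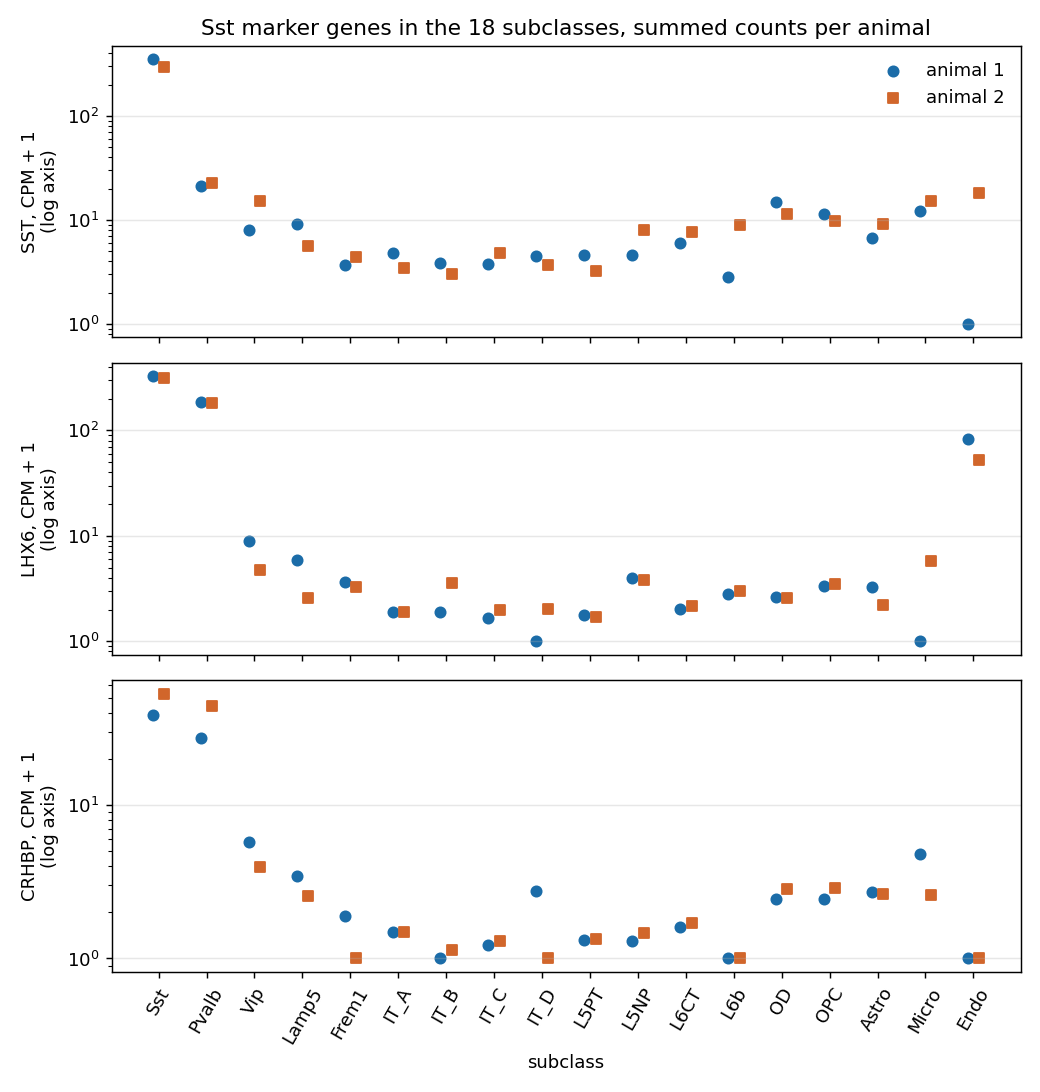
Level of SST, LHX6 and CRHBP (CPM + 1, log axis) in each of the 18 subclasses, 1 point per animal from summed counts. SST stood highest in Sst nuclei, at 350.3/291 CPM, while LHX6 and CRHBP were also high in Pvalb nuclei.

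The marker was sparse in single nuclei. With each nucleus thinned to 2000 UMIs and shallower nuclei left out, an SST UMI was found in 35.7% (168 of 471) of the Sst nuclei of animal 1 and 27.3% (112 of 410) of animal 2. Without Sst_2 it was 36.8% (159 of 432) and 33.6% (93 of 277). The same share was 3.36% and 3.44% in Pvalb nuclei, 2.12% and 1.98% in oligodendrocytes and 0.728% and 0.561% in IT_A neurons. In microglia it was 0% (0 of 56), with an interval up to 6.38%, and 7.04% (5 of 71), with an interval of 2.33 to 15.7%. The Sst share lay above that of each of these nuclei at the same depth in both animals. As deposited, the median depth was 6269 and 4713 UMIs in Sst nuclei and 1924 and 1909 in oligodendrocytes, and an SST UMI was present in 56.8% and 42.8% of Sst nuclei and in 2.94% and 2.15% of oligodendrocytes. Of the 508 Sst nuclei without one, 325 (64.0%) held a UMI of LHX6. The nuclei with SST held a median of 2 of its UMIs and at most 45.

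Sst nuclei made up nearly the same share of GABAergic nuclei in both animals. The share was 23.7% (539 of 2272, interval 22.0 to 25.5%) in animal 1 and 23.2% (481 of 2075, interval 21.4 to 25.1%) in animal 2, where intervals are exact 95% binomial ones that cover counting error only. By library it was 24.3%, 23.1%, 24.3% and 22.4% in 1A, 1B, 2A and 2B. No difference between the libraries of an animal passed the test (2-sided Fisher's exact test, adjusted p = 0.521 in both animals, 2 tests). Of the Sst and Pvalb nuclei together, Sst nuclei were 31.8% in animal 1 and 32.7% in animal 2. Without the nuclei of Sst_2, a shallow type, the share of GABAergic nuclei was 19.99% in animal 1 and 14.9% in animal 2, and the intervals did not overlap. The shallow type Pvalb_2, which was 14.3% of Pvalb nuclei in animal 1 and 33.5% in animal 2, stayed in that denominator. Without both types the share was 21.6% (433 of 2001, interval 19.9 to 23.5%) in animal 1 and 18.1% (279 of 1542, interval 16.2 to 20.1%) in animal 2, and the intervals overlapped.

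Compared with the other labelled GABAergic nuclei, Sst nuclei had the largest ratios, among genes with a symbol, for COL8A1, LAMA1, VEGFC, ZFPM2 and SPSB4, and the lowest for ADARB2 and SVIL. Of the 8 Vip markers with a symbol 4 entered, and all 4 were lower. Genes entered this comparison with at least 20 CPM in the higher group of both animals, which 6477 genes met. A gene is called higher or lower here where the log2 ratio of CPM + 1 was at least 1 in size, a 2-fold difference, in both animals. By this rule 295 genes were higher in Sst nuclei (4.55% of those entering) and 363 were lower (5.60%). For all of them the 4 Sst libraries lay on one side of the 4 libraries of other GABAergic nuclei. That separation was largely fixed by the 2-fold rule in both animals and is not separate support. With the 4 other subclasses weighted equally, 14 of the 86 named and list genes called no longer met the rule, among them ESR1, ETV1, GRIK1, GRIN2C, IL1RAPL1, KCNH7, NRXN3, PNOC, PTPRT, SYT2, TENM1 and TNR. HAPLN4 was another, with a log2 ratio still at -2.52. A symbol was given for 198 of the higher and 255 of the lower genes, and only these are named. The median log2 ratio over all genes entering was -0.03.

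The largest ratios among genes with a symbol were those of COL8A1 and LAMA1, which encode matrix proteins. COL8A1, a chain of type VIII collagen, was at 369 and 338 CPM in libraries 1A and 1B and 232 and 233 in 2A and 2B, against 3.22/2.41 CPM in the other GABAergic nuclei of the 2 animals (log2 ratio 6.25 ± 0.21). LAMA1, the alpha 1 chain of laminin, was at 108 and 112 CPM in libraries 1A and 1B and 94.0 and 104 in 2A and 2B, against 1.93/2.15 (log2 ratio 5.12 ± 0.17). All Sst libraries were far above the others for both genes, and COL8A1 was lower in both libraries of animal 2 than in those of animal 1. Neither gene was particular to Sst nuclei across the cortex, since L5NP neurons had 631/481 CPM of COL8A1 and endothelial nuclei 165/138 of LAMA1. ANOS1, which encodes the matrix protein anosmin and had the smallest ratio of the 15 (log2 ratio 3.70 ± 0.10), was at 74.1/64.7 CPM in Sst nuclei against 4.51/4.29, with 604 CPM in astrocytes as the mean of the animals.

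NXPH2 and VEGFC encode secreted ligands. NXPH2, a neurexophilin that binds alpha-neurexins, was at 1289 and 1376 CPM in libraries 1A and 1B and 1112 and 1183 in 2A and 2B, against 68.9/80.6 CPM in the other GABAergic nuclei (log2 ratio 4.04 ± 0.31). Its Sst level was the highest of all 18 subclasses, but by less than 2-fold over L6b neurons, at 924/964 CPM. VEGFC, a growth factor known from lymphatic vessels, was at 56.8 and 43.8 CPM in libraries 1A and 1B and 48.7 and 56.2 in 2A and 2B against 0.966/0.358 CPM. Endothelial nuclei had 61.8/0 CPM, from 3 UMIs in all, and no other subclass was over 3.66.

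Regulators, enzymes and membrane proteins were among the other genes. ZFPM2, a cofactor of GATA factors, was at 940.4 and 939 CPM in libraries 1A and 1B and 922 and 800.1 in 2A and 2B, against 24.9/31.1 CPM (log2 ratio 4.96 ± 0.31). L6b and L6CT neurons had more of it, at 1358/1420 and 1053/1246 CPM. SPSB4, an adaptor of a ubiquitin ligase, was at 267/224 CPM against 8.13/7.51 (log2 ratio 4.80 ± 0.11). MOXD1, a monooxygenase related to dopamine beta-hydroxylase, was at 1147/995 against 63.6/74.5 CPM, and Vip nuclei alone among the other GABAergic subclasses held a level above 100 CPM, at 374/473. The signalling enzymes PRKCQ, a protein kinase C, and PDE1C, a calmodulin-dependent phosphodiesterase, were at 109.9/75.3 and at 52.1/44.9 CPM in the 2 animals, against 4.83/2.41 and 1.85/1.34. L5NP neurons had more PRKCQ, at 261/219 CPM. OTOF, the calcium sensor otoferlin, was at 67.6/60.1 CPM against 1.53/2.59, and oligodendrocyte precursors had 25.1/79.0. ANO3, of the anoctamin family, was at 438/361 against 19.7/25.8, and it was higher still in IT_B neurons, at 517 CPM on average. The receptor gene GPR83 and the kelch-like gene KLHL14 closed the group, at 47.3/24.4 and 45.1/26.6 CPM in Sst nuclei against 1.29/1.61 and 2.25/0.805. IT_D neurons had more of both, at 65.1/38.0 and 167/74.9 CPM. For GPR83 the libraries ranged from 19.9 to 49.6 CPM, with animal 2 below animal 1.

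Among the 15 genes with a symbol furthest below the other GABAergic nuclei were ADARB2, PROX1, VIP, CALB2, KIT, QRFPR and USH1C, whose level was highest, among the 5 GABAergic subclasses, in a CGE-type one. ADARB2, an RNA-editing family member used as a CGE marker, was at 12.1 and 4.03 CPM in libraries 1A and 1B and 2.56 and 7.54 in 2A and 2B, against 513/484 CPM (log2 ratio -6.03 ± 0.32), and Pvalb nuclei were as low, at 4.09/5.99. PROX1, a transcription factor of CGE-derived cells, was at 0.564/1.52 CPM in Sst nuclei and 215/169 in Vip nuclei. VIP was at 0.564/1.14 against 242/239 CPM in Vip nuclei, and the calcium-binding protein gene CALB2 at 0.564/0 against 217/186. The Lamp5 genes KIT, a receptor tyrosine kinase, QRFPR, a peptide receptor, and USH1C, the scaffold harmonin, were at 869, 208 and 1438 CPM on average in Lamp5 nuclei. In Sst nuclei they were at 0.564/3.04, at 0/0.380 and at 4.23/11.0 CPM in the animals. Pvalb nuclei were also low in PROX1, VIP, CALB2, KIT and QRFPR, at or under 2.05 CPM, but had 90.0/110 of USH1C. Sst nuclei held 2 UMIs of CALB2, 1 of QRFPR and 5 of VIP in all, so no ratio is given for them in the text.

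Other genes of this end separated Sst from Pvalb nuclei as well. MYO5B, an unconventional myosin, was at 29.0/26.3 CPM in Sst and 805/758 in Pvalb nuclei. SVIL, the actin-binding supervillin, was at 3.10/6.09 against 297/447, and SFRP1, a secreted inhibitor of Wnt signalling, at 4.23/1.14 against 141/107. ASB2, PLAT, which encodes tissue plasminogen activator, and LTBP1, which binds latent TGF-beta, were at 2.25/1.90, at 1.97/1.14 and at 2.25/7.61 CPM in Sst nuclei, against 103/102, 65.8/73.4 and 151/205 in Pvalb nuclei. The highest level of any of these 6 genes in an Sst library was 29.97 CPM, of MYO5B in 1B. AJAP1 and the phosphodiesterase gene PDE3A were lower in Sst nuclei than in all 4 other GABAergic subclasses, with 13.0/20.5 CPM of AJAP1 against subclass means of 273 to 489, and 3.10/1.90 of PDE3A against 17.3 to 115.

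**Figure D2:**
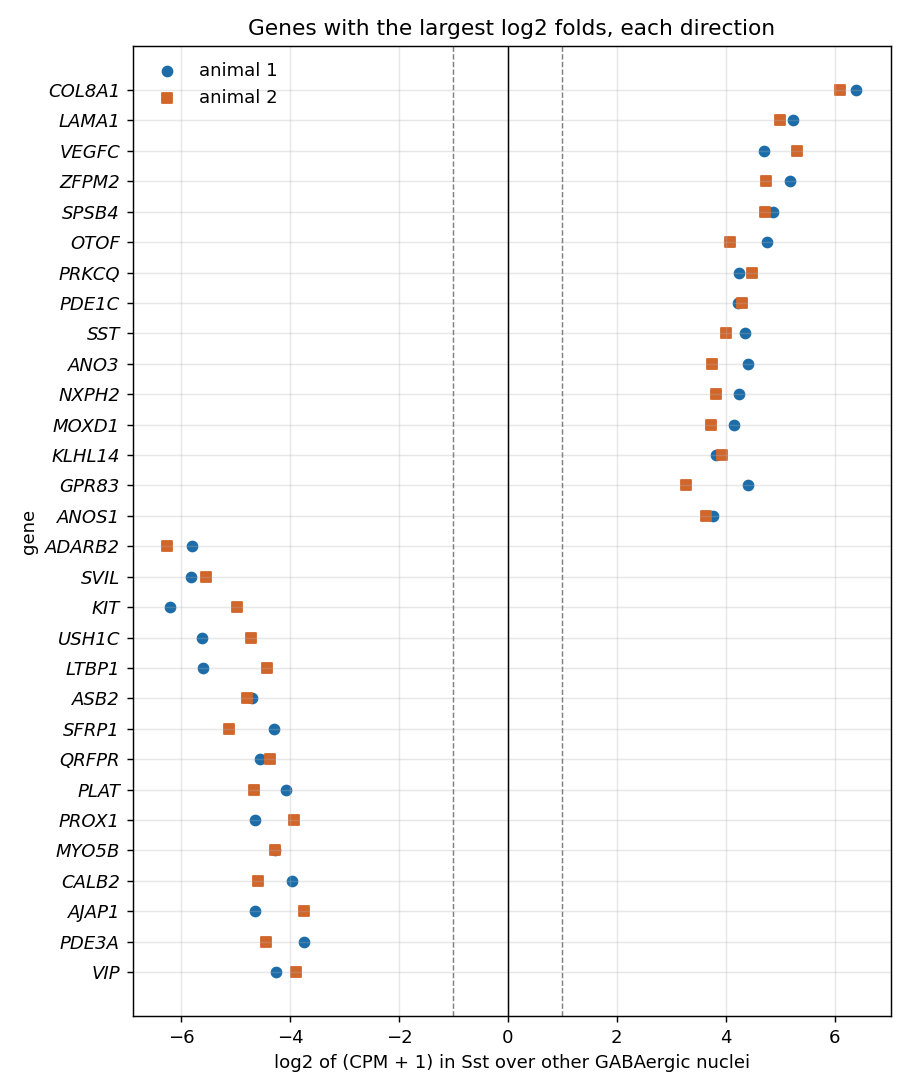
Log2 ratio of CPM + 1 in Sst over the other labelled GABAergic nuclei, 1 point per animal, for the 15 named genes with the largest mean ratio in each direction. Dashed lines mark a 2-fold difference, and the animals lay on the same side of them for every gene shown. CALB2, QRFPR and VIP rest on 5 UMIs or fewer in Sst nuclei, so their ratios depend on the added 1 CPM.

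Transcription factors that specify MGE-derived interneurons were expressed in these adult nuclei. Of the 8 MGE factors listed, 7 had a symbol and 6 entered. Of these 3 were higher in Sst than in other GABAergic nuclei and 0 lower, where 4.55% and 5.60% of all genes entering were. The median log2 ratio of the 6 was 0.97. SATB1, a chromatin organiser needed for the maturation of Sst cells in mice, was at 772/672 CPM in Sst nuclei and 315/263 in Pvalb nuclei, the next GABAergic subclass (log2 ratio over all others 1.78 ± 0.06). SOX6 and MAF, which act in both MGE lineages, were at 958/944 and at 703/581 CPM, against 848/907 and 681/613 in Pvalb nuclei, so they differed little between these subclasses. NKX2-1, the regional identity gene of the MGE, was represented by 1 UMI. Of the CGE factors, PROX1 and ADARB2 were lower and NR2F1 was not called, at 70.7/83.7 CPM against 51.6/57.1. Among pan-GABAergic factors, DLX1 was at 36.6/32.7 CPM against 30.3/25.8 and was not called.

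Genes for GABA synthesis and transport were expressed in Sst nuclei, most of them below the level of other GABAergic nuclei. Of 6 genes for GABA synthesis, packaging, uptake and breakdown, 1 was lower and 0 were higher, where 5.60% and 4.55% of all genes entering were. The median log2 ratio of the 6 was -0.36. GAD1 and GAD2, the GABA-synthesising enzymes, were at 297/317 and at 432/416 CPM, against 517/544 and 578/583. SLC6A11, the transporter GAT3, was at 127/94.7 CPM against 47.7/48.5, and the Pvalb level was lower, at 29.0/19.9.

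Among neuropeptide genes, few reached the minimum level. Of 21 listed genes 14 had a symbol and 4 entered. SST and PNOC were higher and VIP and CCK lower, where 4.55% and 5.60% of all genes entering were. PNOC, the precursor of nociceptin, was at 118/106 CPM in Sst nuclei, above 22.3/30.3 in Pvalb nuclei and under 138/197 in Lamp5 nuclei. CCK was at 16.1/34.2 CPM against 187/199.8. NPY, which many mouse Sst cells express, was represented by 9 UMIs in the 1020 Sst nuclei, or 0.282/3.04 CPM, and its highest subclass mean was 2.71 CPM. PENK, PDYN, CRH and NTS were at 1.13/2.28, at 0.282/1.52, at 0.846/1.52 and at 2.82/2.28 CPM, from 16 UMIs or fewer each. CORT, the somatostatin-like peptide cortistatin, and TAC1 had no symbol in the files and were not measured here.

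Many genes that mark Sst types in mice were at or near 0 here. Of 36 such genes, 30 had a symbol and 11 entered, with a median log2 ratio of 0.52. Of these, 3 were higher in Sst nuclei and 4 lower, where 4.55% and 5.60% of all genes entering were. MME and RELN were among the higher genes, and NOS1, CALB2, ETV1 and RXFP1 were the lower ones. The calls of NOS1 and ETV1 depended on the setting. The log2 ratio of NOS1 was -1.04, and -0.84 with a pseudocount of 5 CPM, and that of ETV1 was -1.39, and -0.54 with the 4 other subclasses weighted equally. MME, the peptidase neprilysin, was at 83.3 and 80.1 CPM in libraries 1A and 1B and 87.2 and 86.4 in 2A and 2B, against 4.75/7.15 CPM in other GABAergic nuclei, and no other subclass exceeded 10.5 CPM on average. RELN, the secreted glycoprotein reelin, was at 1538 and 1518 CPM in libraries 1A and 1B and 1329 and 1464 in 2A and 2B. It was higher still in Lamp5 nuclei, at 2877/2399 CPM, and low in Pvalb and Vip nuclei, at 3.30/5.73 and 4.74/13.4. MYH8, a marker of deep-layer Sst types in mice, had 0 UMIs. CHODL and NOS1, which mark long-range Sst neurons in mice, were at 1.69/2.66 and at 9.86/11.4 CPM, and CBLN4, HPSE and CHRNA2 were at or under 3.38 CPM. CALB1 was at 76.4/41.9 CPM and not called. A gene model that misses a 3' end can also leave a gene near 0, and that was not tested gene by gene.

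The somatostatin receptor genes were low in Sst nuclei. Of 5 receptor genes 4 had a symbol, and 0 reached the minimum of 20 CPM in the higher group. SSTR1 was at 7.89/7.99 CPM, the second highest subclass mean. SSTR4 was at 1.69/1.14 CPM in Sst nuclei and at 50.1/45.7 in Lamp5 and 35.7/28.8 in Frem1 nuclei. It did not enter because the higher group, the pooled other GABAergic nuclei, averaged 10.7/10.0 CPM.

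Receptors for other peptides and hormones were called in both directions. Of 28 listed genes 23 had a symbol and 9 entered. Of these 2 were higher and 3 lower, where 4.55% and 5.60% of all genes entering were. The median log2 ratio of the 9 was -0.02. OXTR, the oxytocin receptor, was at 43.0 and 56.5 CPM in libraries 1A and 1B and 53.0 and 33.6 in 2A and 2B, against 7.32/5.72 CPM in other GABAergic nuclei (log2 ratio 2.64 ± 0.06). Its level in the other 4 GABAergic subclasses was at most 10.1 CPM in any animal, while OPCs, the oligodendrocyte precursors, had 73.4 on average. OPRM1, the mu opioid receptor, was at 59.2/41.5 CPM, under Vip nuclei at 83.7/67.6 and above Pvalb nuclei at 8.18/5.86. Lower were the relaxin receptor RXFP1, at 46.8/40.3 CPM against 354/344, the neurotensin receptor NTSR1, at 11.0/15.6 against 77.9/71.1, and the estrogen receptor ESR1, at 28.7/4.57 against 67.4/84.4. The orexin receptor HCRTR2 was not called, but stood at 176/201 CPM in Sst nuclei and at 13.5/14.5 in Pvalb nuclei. TACR3, a tachykinin receptor, was at 20.01/19.8 CPM, the highest of the 18 subclass means, but missed the minimum level in animal 2. NPY2R was found in Sst nuclei alone among GABAergic subclasses, with 18 UMIs or 2.82/3.04 CPM, a level too low to compare.

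Of 22 receptors for monoamines and acetylcholine, 6 entered. Of these 0 were higher and 2 lower, where 4.55% and 5.60% of all genes entering were. The median log2 ratio of the 6 was -0.07. The adrenergic receptors ADRA1A and ADRA1D were at 43.4/35.0 and at 3.95/4.19 CPM in Sst nuclei, against 156/157 and 33.6/36.9. HTR2A, a serotonin receptor, was at 101/95.5 CPM, the highest subclass mean, but under 2-fold above the others. CHRNA4, a nicotinic subunit, was at 83.1/65.8 CPM in Sst nuclei, at 86.4 to 120.0 on average in the CGE-type subclasses, and at 8.98/9.37 in Pvalb nuclei.

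Genes for glutamate and GABA receptors lay on both sides. Of 31 listed genes 23 entered. Of these 3 were higher and 4 lower, where 4.55% and 5.60% of all genes entering were. The median log2 ratio of the 23 was -0.09. The kainate receptor subunit GRIK3 was at 1784 and 1744 CPM in libraries 1A and 1B and 1739 and 1659 in 2A and 2B, against 260.0/192 CPM (log2 ratio 2.95 ± 0.27), with the next GABAergic subclass, Pvalb, at 342/246. GRM8, a presynaptic metabotropic receptor, was at 419/441 CPM against 183/146. The GABA-A subunit gene GABRB2 was at 306/325 CPM, against 1175/1139, and in each of the 4 other GABAergic subclasses it was at over 2 times the Sst mean. GABRA2 was not called, at 186/189 CPM against 162/167. GRIK1 and GRIN2C were lower as well, at 21.4/18.6 and 11.6/14.1 CPM, with 73.4/79.9 and 86.6/84.0 in Pvalb nuclei, but neither was 2-fold lower with the 4 subclasses weighted equally.

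Of the lists, that of Sst synapse and adhesion genes was the longest and held the most higher genes. By share the MGE factors held more, with 3 of the 6 that entered. Of 46 listed genes 38 had a symbol and 31 entered, of which 9 were higher and 4 lower, where 4.55% and 5.60% of all genes entering were. The median log2 ratio of the 31 was 0.51. ELFN1, which sets the release properties of excitatory inputs onto Sst cells in rodents, was at 40.3 and 60.5 CPM in libraries 1A and 1B and 63.3 and 59.0 in 2A and 2B, against 9.09/10.6 CPM. Pvalb nuclei had 6.25/5.86 CPM and Vip nuclei 34.0/46.8. The cadherins CDH13, CDH9 and CDH8 were at 2147/1758, at 1191/1300.5 and at 614/538 CPM, against 339.8/315, 180.3/185 and 188/144. NRXN3, a presynaptic neurexin, was at 19006/14540.5 CPM against 7620.4/6832, but Vip and Frem1 nuclei were near the Sst level, at 13533/12782 and 15033/13693. PCDH7, PTPRT and SEMA6A completed the higher genes with NXPH2. The lower ones were CNTN5, IL1RAPL1, the netrin receptor UNC5C and TENM1, of which UNC5C was at 119/127 CPM against 467/429. With the 4 other subclasses weighted equally, NRXN3, PTPRT, IL1RAPL1 and TENM1 were under 2-fold.

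Most ion channel genes that entered were not called. Of 24 potassium channel genes 18 entered, 3 were higher and 5 lower, where 4.55% and 5.60% of all genes entering were, with a median log2 ratio of -0.39. KCND2, the A-type channel Kv4.2, was at 4524/4687 CPM against 2049/1959 (log2 ratio 1.20 ± 0.08) and KCNH5 at 344/348 against 106/105. The Kv1 gene KCNA3 was at 42.3/33.5 against 12.4/12.8. KCNC1, the Kv3.1 channel of fast-spiking neurons, was at 239.8/215 CPM against 815/878 in Pvalb nuclei. KCNT2 was at 78.4/84.5 CPM, and 2504/2589.8 in Vip nuclei. KCNAB1, an auxiliary Kv subunit, was at 123/111 against 1247/929 in Pvalb nuclei, and KCNJ3 and KCNH7 were the other lower genes. Of 28 sodium, calcium and HCN channel genes 15 entered, 2 were higher and 1 lower, the latter near the share of all genes, with a median log2 ratio of -0.06. CACNA2D3, an auxiliary calcium channel subunit, was at 3013 and 3006 CPM in libraries 1A and 1B and 3186 and 3218 in 2A and 2B, against 206/323 CPM (log2 ratio 3.58 ± 0.39). CACNA1E, the R-type channel, was at 754/994 against 195/204.

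**Figure D3:**
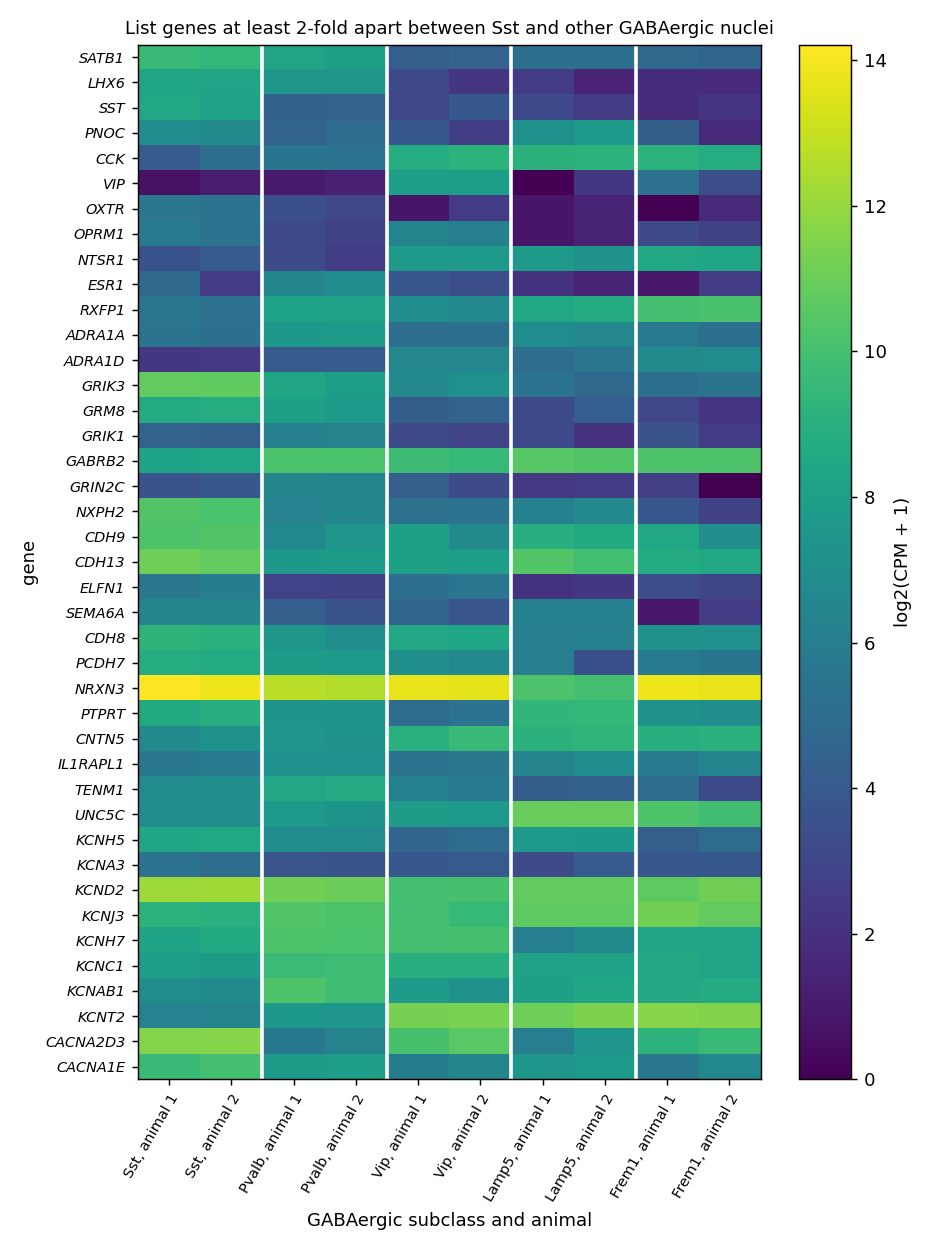
Level, as log2(CPM + 1), of genes of 8 lists that were called between Sst and the other GABAergic nuclei, in the 5 GABAergic subclasses of each animal. Rows follow the lists and, within a list, the ratio, so that genes such as GRIK3 and NXPH2 stand out in the Sst columns, at 1729.6 and 1242 CPM on average.

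Genes of other interneurons, of the extracellular net and of other cell classes were checked in the same way. ERBB4, a receptor that is high in Pvalb and Vip cells, was at 1965/1722 CPM in Sst nuclei against 15334/15766 (log2 ratio -3.08 ± 0.16), and SYT2 at 49.9/41.9 against 227/254 in Pvalb nuclei. Of 14 genes of the perineuronal net and matrix 5 entered. Of these 3 were lower and 1 higher, where 5.60% and 4.55% of all genes entering were. The median log2 ratio of the 5 was -1.45. TNR, or tenascin R, was at 91.3/88.6 CPM, against 349.7/331 in Pvalb nuclei, and the link protein HAPLN4 at 1.41/2.28 against 53.0/50.5. PTPRZ1 was the higher one, at 86.5/92.5 against 39.0/36.3. Of the 14 activity-regulated genes only HOMER1 entered, at 179/309 CPM in the 2 animals. Summed levels of glial marker lists in Sst nuclei were 165/121 CPM for 6 oligodendrocyte genes and 144/125 for 7 astrocyte genes, against 152/143 and 112/106 in other GABAergic nuclei and 16649 and 19619 in the glial subclasses themselves. The 6 microglial genes summed to 1.97/2.66 CPM, with 2 of them at 0. The 12 glutamatergic genes summed to 999/1180.2 CPM, against 652/659.8 in other GABAergic nuclei. CUX2, which interneurons also express, was called higher in Sst nuclei, and with BCL11B it accounted for most of the sum, at 522/583 and 406/469.9.

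Against Pvalb nuclei alone, the other MGE-derived subclass, 371 genes were higher in Sst nuclei (5.77% of 6425 entering) and 326 lower (5.07%). This comparison shares its Sst and its Pvalb nuclei with the one above, where 2146 of the 3327 other GABAergic nuclei were Pvalb, so a gene called in both is not separate support. SATB1, GRIK3, CDH9, CDH13, CACNA2D3, ELFN1, NXPH2 and RELN were among the higher genes, with log2 ratios of 1.32 ± 0.04, 2.57 ± 0.29, 3.25 ± 0.47, 3.24 ± 0.32, 5.54 ± 0.39, 3.00 ± 0.25, 3.84 ± 0.30 and 8.09 ± 0.54 (n = 2). LHX6, with 0.81 ± 0.004, GRM8, with 0.91 ± 0.27, KCND2, with 1.06 ± 0.12, and PCDH7, with 0.98 ± 0.03, were higher than in the pooled GABAergic nuclei but not by 2-fold in both animals than in Pvalb nuclei. HCRTR2, CHRNA4, GRM7, GRIN2A, TOX and SLC6A11 were the reverse, called against Pvalb nuclei and not against the pool, with ratios of 3.65 ± 0.07, 2.88 ± 0.27, 1.95 ± 0.04, 1.40 ± 0.20, 2.20 ± 0.06 and 2.15 ± 0.07. KCNAB1, KCNC1 and ERBB4 were lower, with -3.19 ± 0.19, -1.89 ± 0.19 and -3.17 ± 0.15.

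Few genes marked Sst nuclei within the whole cortex. Of 10412 genes with at least 20 CPM in some subclass of both animals, 24 (0.231%) were at least 2-fold higher in Sst than in every other subclass of both animals, and 13 of them had a symbol. Pvalb had 23 such genes, Vip 20 and Lamp5 27. Folds over the next subclass are ratios of CPM + 1. SST stood 14.7-fold above the next subclass in the means of the animals. SPSB4 was at 245 CPM, 9.44-fold above OPCs, and MME 7.42-fold above L6b neurons. TRHDE, the enzyme that degrades thyrotropin-releasing hormone, was at 1892 CPM, 3.15-fold above IT_B neurons. EFNA5, an ephrin, was at 1458 CPM, 2.42-fold above Pvalb nuclei. The others were CDH9, MOXD1, SATB1, ELAPOR1, SRPX, the transcription factor KLF5, PDE1C and the calcium channel gene TRPV6, whose ratios to the next subclass lay between 2.29 and 4.47. These 13 were picked out by that rule.

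The genes whose order over the subclasses was most like that of SST were not Sst genes. Over the 18 subclass means the 5 genes with the highest Spearman correlation with SST, of 4653 with a symbol and at least 20 CPM in Sst nuclei, were NAA35 (0.891), PDPR (0.860), FRMD4B (0.835), EXOC7 (0.825) and SMAD4 (0.816). None peaked in Sst nuclei. NAA35 was at 82.9 CPM in Sst and 79.5 in Pvalb nuclei. The ranks were set by the low SST levels outside Sst nuclei, in subclasses that share their libraries.

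The 4 types were found in all libraries, in different proportions in the 2 animals. Sst_1 made up 36.0% (194 of 539, interval 31.9 to 40.2%) of the Sst nuclei of animal 1 and 24.5% (118 of 481, interval 20.7 to 28.6%) of animal 2. Sst_2 made up 19.7% (106 of 539, interval 16.4 to 23.3%) and 42.0% (202 of 481, interval 37.5 to 46.5%). For both types the intervals of the animals did not overlap, but the types share 1 denominator. Of the Sst nuclei outside Sst_2, Sst_1 made up 44.8% (194 of 433, interval 40.1 to 49.6%) in animal 1 and 42.3% (118 of 279, interval 36.4 to 48.3%) in animal 2, and these intervals overlapped. Among all Sst nuclei, Sst_3 made up 29.7% (160 of 539, interval 25.9 to 33.7%) and 23.3% (112 of 481, interval 19.6 to 27.3%), and Sst_4 14.7% (79 of 539, interval 11.8 to 17.9%) and 10.2% (49 of 481, interval 7.63 to 13.2%), with overlapping intervals. Between the libraries of an animal no type's difference passed the test (2-sided Fisher's exact test, 8 tests, adjusted p of 0.512 or more). The largest gap was that of Sst_2, with 46.4% in 2A and 38.5% in 2B. With 1 animal on each side, the difference between animals was not tested, and age, experimenter and animal cannot be told apart.

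**Figure D4:**
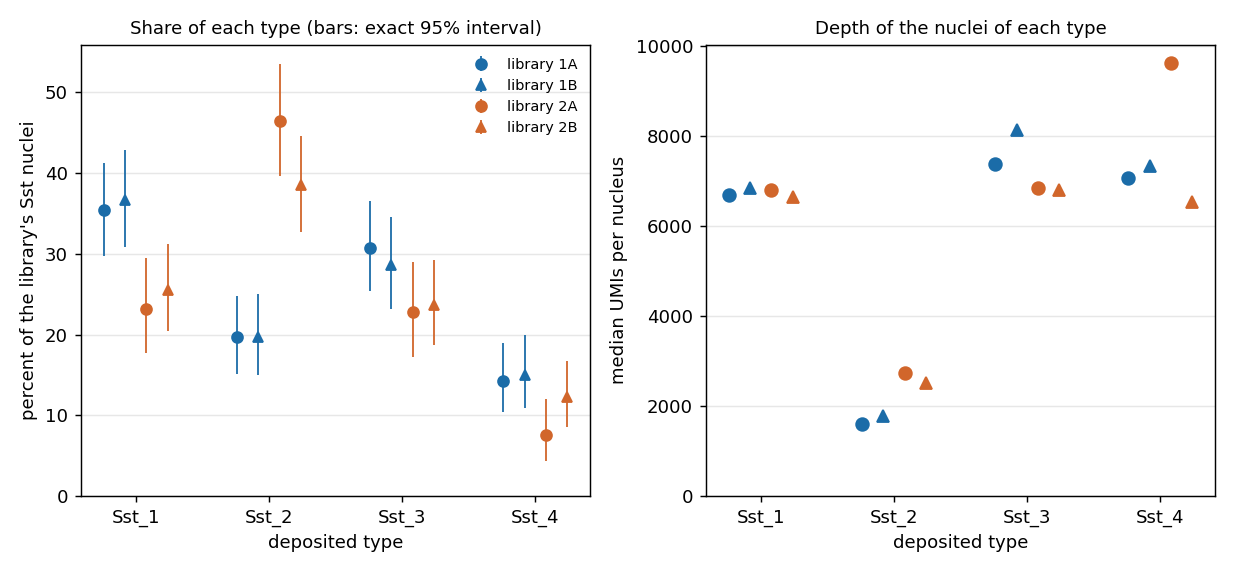
Left, share of each deposited type among the Sst nuclei of each library, with exact 95% binomial intervals. Right, median UMIs per nucleus. Sst_2 held 19.6% and 19.7% in the libraries of animal 1 and 46.4% and 38.5% in those of animal 2, and its nuclei were the shallowest in all 4.

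To compare types at the same depth, nuclei were thinned to 2000 UMIs, shallower ones were left out, and each type was set against all other Sst nuclei of its animal, with a minimum of 50 CPM. This kept 194 and 116 nuclei of Sst_1, 39 and 133 of Sst_2, 160 and 112 of Sst_3 and 78 and 49 of Sst_4 in animals 1 and 2. The minimum stood for 3.90 UMIs in the smallest sum, that of Sst_2 in animal 1, and for 19.4 in the largest, so genes near it are imprecise. Of the 295 genes higher in Sst than in other GABAergic nuclei, 231 were at least 2-fold higher in both animals in Sst_1 alone, 191 in Sst_2, 213 in Sst_3 and 155 in Sst_4, and of the 363 lower genes 302, 288, 296 and 221 were 2-fold lower. Sst_4 thus kept the fewest of them in both directions. These genes were chosen on the same nuclei, so the counts describe the types and test nothing.

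Sst_1 was led by COL8A1. Relative to other Sst nuclei 49 genes were higher (1.41% of those entering) and 56 lower (1.61%). COL8A1 was at 848/629 CPM against 77.6/109 in other Sst nuclei (log2 ratio 2.98 ± 0.64), and COL4A2, a chain of type IV collagen, at 137/108 CPM against 16.2/37.4. The netrin receptor UNC5C was at 247/293 CPM against 54.2/52.7, VAV2, a guanine nucleotide exchange factor, at 137/147 CPM against 25.3/39.1, and MAML2, a Notch coactivator, at 82.5/177 CPM against 25.3/15.3. CDH13, the T-cadherin, was at 3510.3/3043 CPM in Sst_1 and 308/469 in Sst_4. OXTR was higher, at 87.6/86.2 CPM against 31.2/22.3 in Sst_3, although Sst_2 of animal 1 reached 89.7. SST itself was highest in this type in both animals, at 454/612 CPM. Lowest relative to the rest were genes that lead Sst_3 and Sst_4 (SDC2, PLPP4, SLC9A9 and PLCXD3) and SEMA3C, at 20.6 and 4.31 CPM against 307/175.

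Sst_3 had 62 higher genes (1.79%) and 57 lower (1.65%). SDC2, the heparan sulfate proteoglycan syndecan 2, was at 156/147 CPM against 4.82/6.71 (log2 ratio 4.51 ± 0.35). The sodium-proton exchanger gene SLC9A9 was at 341/509 CPM against 37.0/10.1, PLPP4, a lipid phosphatase, at 403/366 CPM against 24.1/30.2, and PRRG1 at 68.8/80.4 CPM against 6.43/6.71. PRLR, the prolactin receptor, was at 119/107 CPM against 8.04/16.8. The adhesion genes CDH9 and PCDH7 were at 2166/2638 and at 712/817 CPM in Sst_3, above every other type in both animals. COL8A1 was at 28.1/17.9 CPM and CDH13 at 1128/737, both lower than in Sst_1. ERBB4 was lowest here, at 609/504 CPM. RELN was at 2134/2259 CPM, above each other type, but under 2-fold over the other Sst nuclei pooled.

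Sst_4 was the smallest type and had the most genes called, with 101 higher genes (2.87%) and 109 lower (3.10%). PLCXD3, of the phospholipase C family, was at 577/806 CPM against 7.63/67.9, and SLIT2, a guidance ligand of Robo receptors, at 833/612 CPM against 64.9/77.6. MYO1E, DAAM2 and the opsin gene OPN5 were at 76.9/61.2 CPM against 0/8.31, 51.3/102 CPM against 12.7/5.54 and 64.1/81.6 CPM against 7.63/12.5, where 50 CPM stood for 7.80 and 4.90 UMIs. ERBB4 was at 6397/6194 CPM, where the other types had at most 1162 and Pvalb nuclei, as deposited, 16399/16629.7. The 7 Pvalb markers summed to 6712/6541 CPM in Sst_4, nearly all of it from ERBB4, and Scrublet had marked 1.56% of its nuclei. The median doublet score was highest in Sst_4, at 0.0379, against 0.0141, 0.0331 and 0.0159 in Sst_1, Sst_2 and Sst_3, and the part of doublets in the ERBB4 level was not tested. CRHBP, a marker of the whole subclass, was at 96.2/143 CPM in Sst_4, against 28.4/77.6 in Sst_1, 43.8/26.8 in Sst_3 and 25.6/11.3 in Sst_2. Also higher were GRM7, at 1179/1092 CPM, CACNA1E, at 1699/1888, CDH8, at 1115/1153, and HTR2A, at 224/143.

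Several genes that characterised Sst nuclei as a whole were low in Sst_4. ZFPM2 was at 44.9/30.6 CPM, where the other types had 577 or more. MOXD1 was at 282/245 CPM, against 961 or more. COL8A1 was at 12.8/10.2 and ELFN1 at 19.2/0 CPM. SOX6 was at 397/337 CPM, against 1095/1108 in Sst_1, and RELN at 256/500, against 1569.6/1371. LHX6 and SATB1 were not called in any type, with 263/367 and 776/663 CPM in Sst_4. SST was at 263/469 CPM. NOS1 was at 25.6/30.6 CPM in Sst_4 and at most 12.8 in the other types, all under the minimum of 50 CPM and from few UMIs.

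Sst_2 had 69 higher genes (1.94%) and 89 lower (2.50%) at matched depth, and no marker of Sst cells led it. Thinned to 1000 UMIs, which keeps more of its nuclei, 114 genes were higher, 32 of them among the 69. PLEC, the cytolinker plectin, was at 167/128 CPM against 19.7/41.5, and LRRFIP1 at 385/222 CPM against 92.6/95.7. The Golgi proteins GOLGB1 and GOLGA4 were at 821/835 CPM against 225/321 and 397/338 CPM against 108/135. These genes were present in the other types too, at lower levels. At 2000 UMIs an SST UMI was found in 23.1% and 14.3% of Sst_2 nuclei, above Pvalb nuclei but below the 40.2% and 40.5% of Sst_1. As deposited, 139 of its 308 nuclei held no UMI of SST or LHX6. SST was lower, at 128/82.7 CPM, from 10 and 22 UMIs, against 375/188 in Sst_3, and METAP1D, BCHE and SCAMP5 were among the lowest. LHX6 was at 282/218 CPM. Among the genes higher in the whole subclass, CACNA2D3 was at 4128/3556, ZFPM2 at 577/744, NXPH2 at 974/895 and MOXD1 at 1295/992 CPM. ERBB4 was at 1115/1154 CPM, as in Sst_1. Summed oligodendrocyte markers were 192/199 CPM in Sst_2, against 58.0 to 178 in the other types, and the part of glial RNA was not tested.

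**Figure D5:**
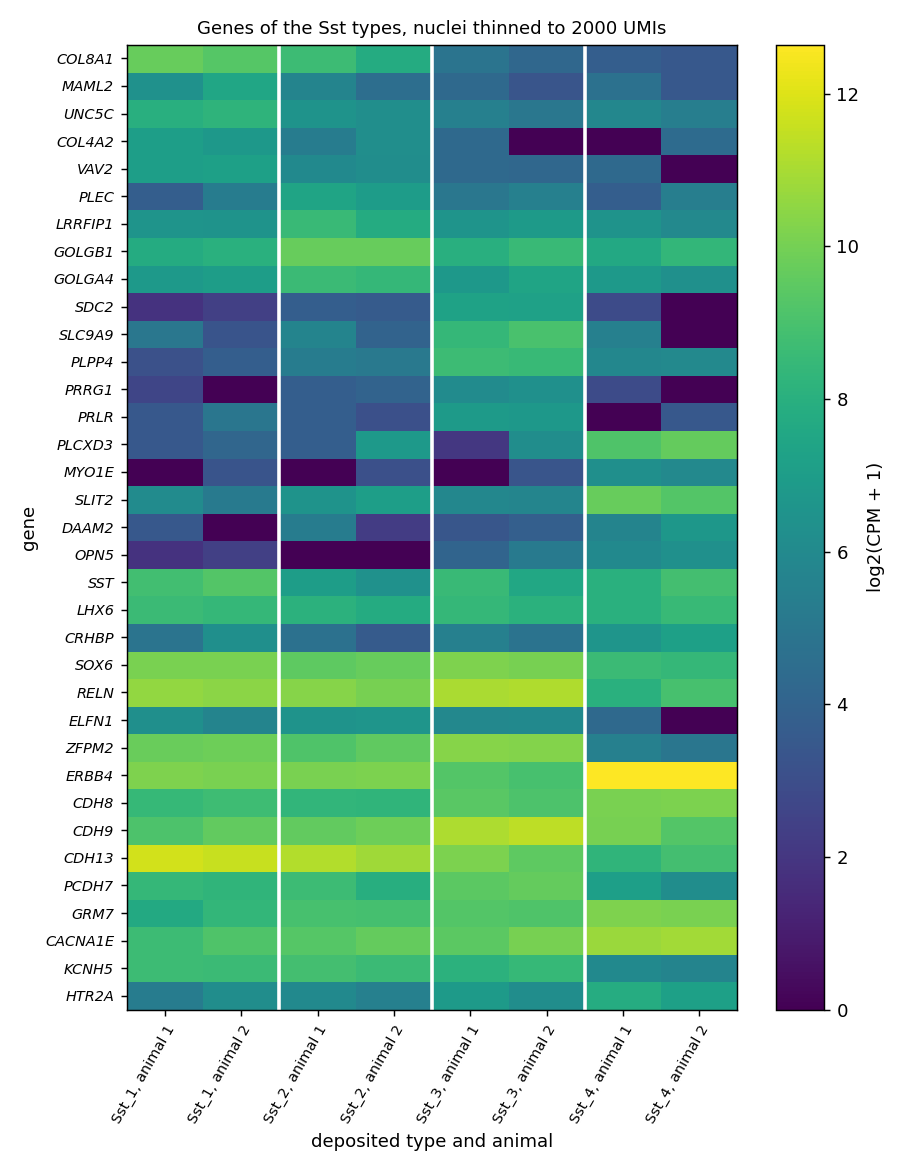
Level, as log2(CPM + 1), in the 4 types of each animal after thinning to 2000 UMIs, for named genes that lead each type and for further markers and list genes. COL8A1 and CDH13 were high in Sst_1, CDH9 in Sst_3 and ERBB4 in Sst_4, while the leading genes of Sst_2 were seen in all types.

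Some of the genes of Sst_2 were also higher in the shallowest Pvalb type. Pvalb_2 had a median of 4154 UMIs, against 6348 to 9378 in the other Pvalb types. Of the 69 genes higher in Sst_2 than in other Sst nuclei, 18 (26.1%) were among the 42 genes higher in Pvalb_2 than in other Pvalb nuclei by the same rule (42.9% of them). With any other Pvalb type it shared at most 1 gene, and Sst_1, Sst_3 and Sst_4 shared 0 genes with Pvalb_2. Of the 18, those with a symbol were ACAA1, DYNC1H1, GOLGA4, GOLGB1, PANX2 and PLEC.

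The 69 genes were also summed by depth. They were chosen as higher in Sst_2 than in the other types, so a lower sum in the others was fixed by that choice and the values are a description. Summed over the 69 genes, the thinned level was 15744/14207 CPM in Sst_2 of animals 1 and 2. In nuclei of Sst_1, Sst_3 and Sst_4 that had 2000 to 4000 UMIs before thinning it was 5487/6653 CPM, and in those over 4000 UMIs 4994/5579. In the 8 and 43 nuclei of Sst_2 over 4000 UMIs it was 10750/12744 CPM, under the 17032/14906 of its shallower nuclei. PLEC was at 194/172 CPM in the shallower and 62.5/34.9 in the deeper Sst_2 nuclei, where the other types over 4000 UMIs had 21.6/41.5. The PLEC levels of the deeper Sst_2 nuclei rest on very few UMIs. The same sum was 12105/10191 CPM in Pvalb_2 and 4717/5413 in the other Pvalb types. The part of depth in these levels was not tested.

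The Sst nuclei of the 2 animals were compared by library, with no replicate animal on either side. Of 6626 genes with at least 20 CPM in the higher animal, 68 were at least 2-fold higher in animal 1 with no overlap between libraries (1.03%) and 17 higher in animal 2 (0.257%). Between libraries of the same animal, where no overlap rule applies, 0.346% of genes differed 2-fold between 1A and 1B and 0.837% between 2A and 2B, and between single libraries of different animals 2.16% to 2.55%. LRRC36 was at 24.3, 34.6, 1.71 and 2.74 CPM in 1A, 1B, 2A and 2B, and ESR1, the estrogen receptor, was at 29.2, 28.2, 3.42 and 5.48 in the same order. For ESR1 the other GABAergic nuclei showed no such gap, at 62.8, 72.1, 81.9 and 86.4 CPM, whereas LRRC36 differed there too, at 22.7, 31.0, 2.98 and 2.12. Whether the gap of ESR1 differs between these nuclei was not tested. Also higher in both libraries of animal 1 were ACADL, an enzyme of fatty acid oxidation, at 50.2, 49.0, 14.5 and 15.8 CPM, the lymphoid transcription factor IKZF1 at 22.6, 20.7, 12.0 and 1.37, and CCDC192 at 80.0, 92.2, 41.0 and 26.1. Higher in both libraries of animal 2 was COL5A1, a chain of type V collagen, at 11.0, 8.65, 35.9 and 29.5 CPM. USP11, a deubiquitinase, was at 9.38, 9.80, 24.8 and 26.7, and SV2B, a synaptic vesicle protein, at 18.8, 21.3, 59.0 and 39.8. ING4 was at 9.38, 10.4, 25.6 and 20.6. Sst_2 was more frequent in animal 2, and without its nuclei USP11 and SV2B were under 2-fold, with log2 of animal 1 over animal 2 at -0.87 and -0.79, while COL5A1 and ING4 were at -1.03 and -1.01. Most of the 85 genes differed the same way in the other GABAergic nuclei of the same libraries, 79 in direction and 21 by at least 2-fold. The same shares over all genes are not given here, so these counts are a description. As log2 of animal 1 over animal 2, the other GABAergic nuclei had 1.59 for ACADL, 0.93 for IKZF1, 0.94 for CCDC192, -1.04 for USP11, -0.74 for COL5A1, -0.30 for ING4 and -0.12 for SV2B. The count depended on the depth and the minimum level: with nuclei thinned to 2000 UMIs 318 genes met the rule, and with a minimum of 50 CPM 22 did. Without Sst_2 nuclei 51 of the 85 genes met the rule and 62 did in all.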

How the data were processed

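Both animals formed 1 group, and no comparison between groups was possible. Per the submitters' processing notes and the methods, the authors aligned reads with Cell Ranger 6.1.1, introns included, against ASM229v1 using an Ensembl annotation with lengthened 3' ends. The deposited matrices hold raw counts of UMIs. The deposited metadata held the class, subclass and type of each nucleus and a Scrublet doublet score, a fraction that the authors computed. Of 30800 genes, 11576 had a symbol of their own in the files. Labelled nuclei marked by Scrublet were kept, and 1 alternative drops them.

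Counts were summed per animal, library and group and scaled to CPM, with 1 CPM added before log2. Nuclei were thinned to 2000 UMIs without replacement. Shares carry exact Clopper-Pearson 95% intervals, which cover counting error only, and libraries of an animal were compared by 2-sided Fisher's exact tests with Benjamini-Hochberg adjustment. Work was done in Python 3.11.15 (scipy 1.17.1, numpy 2.4.6, pandas 2.3.3, matplotlib 3.10.9), and R 4.3.3 and edgeR 4.0.16 gave TMM scaling only. The call rule and the thinning were tested on simulated data.

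The members and the 27 gene lists (352 genes, 286 with a symbol) were chosen with earlier results of these data known. Named genes were the markers, up to 4 called members of each list with the highest Sst level and those a list turns on, the 15 largest ratios in each direction, 5 for each type and 5 in each direction between animals. Alternatives covered scaling, minimum level, pseudocount, weighting, thinning, doublets and leaving out each animal. Those without Sst_2 or Pvalb_2 nuclei, and those that left out an animal for the Pvalb and 18-subclass comparisons, were chosen after seeing the data. Sequences and coordinates are not used here, and some genes that enter the counts are not reported here by name.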

Additional observations from a re-analysis of the deposited data

Results flagged for a closer look

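SST was also found in nuclei that carry no subclass. In the nuclei that the authors put in the non-neuronal class and left out as ambiguous, 22.6% (26 of 115 with at least 2000 UMIs, exact 95% interval 15.3 to 31.3%) held an SST UMI at 2000 UMIs, against 1.87% of labelled non-neuronal nuclei. The share was 28% in animal 1 and 18.5% in animal 2. Their summed levels were 406/377 CPM of SST and 1608/1122 of NOS1, where labelled Sst nuclei had 9.86/11.4 CPM of NOS1. In left-out ambiguous GABAergic nuclei the share was 1.88%, against 2.60% in labelled GABAergic nuclei other than Sst. The Sst share and the marker counts above leave these nuclei out.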

How the results depend on the processing

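Counts of genes depended mostly on the minimum level. Against other GABAergic nuclei, 548 genes were higher and 770 lower with no minimum, and 195 and 220 with 50 CPM, where 295 and 363 were reported. Under the other settings tried the counts stayed within 1.5 times, and from single animals they were 364 to 380 higher and 434 to 444 lower. The genes behind the counts changed more. Of the 295 higher and 363 lower genes, 230 and 256 were kept with the 4 other subclasses weighted equally, and 248 and 322 after thinning. Of the 86 named and list genes called, none changed direction under any setting. With the 4 other subclasses weighted equally 14 of them no longer met the 2-fold and minimum rule, and 9 did not after thinning (among them ESR1, ETV1, GRIK1, KLHL14, LAMP5, NRXN3, PTPRZ1 and TENM1), where the log2 ratio of KLHL14 was still 3.55. NOS1 fell out under 4 settings. The share of Sst among GABAergic nuclei was 20.1% with left-out ambiguous nuclei in the denominator, 22.2% for nuclei of at least 2000 UMIs, 17.4% without Sst_2 and 19.9% without Sst_2 and Pvalb_2, against 23.5%. Of Sst nuclei without Sst_2, Sst_1, Sst_3 and Sst_4 made up 43.5%, 38.5% and 17.9% as the mean of the animals, against 30.3%, 26.5% and 12.4% of all.

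Genes higher in Sst_1, Sst_2, Sst_3 and Sst_4 numbered 111, 185, 101 and 193 with a minimum of 20 CPM, and from single animals 134 to 186, 180 to 671, 133 to 153 and 279 to 449. The highest count for Sst_2 is of animal 1 alone, where 39 of its nuclei entered. Thinning to 1000 UMIs gave 114 for Sst_2, of which 32 were among the 69. An SST UMI was found in 20.4% of Sst nuclei at 1000 UMIs, 31.5% at 2000 and 49.8% as deposited. Between animals, 22 genes met the rule with 50 CPM and 318 after thinning, against 85. With 2 animals, folds near 2 and genes of few UMIs in Sst_2 and Sst_4 are the least certain. Ratios of Sst to other nuclei were taken within each animal.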
